A study of Rattus norvegicus with 6 samples.

Results

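Somatostatin interneurons were followed as the nuclei that met a fixed rule on counts of unique molecular identifiers (UMIs), each of which marks 1 captured RNA molecule. A nucleus had to have at least 500 UMIs, 250 to 5000 detected genes and at most 5% mitochondrial UMIs. It also had to have at least 5 UMIs of the neuronal genes Snap25, Syt1 and Rbfox3 together, at least 2 of the GABA-synthesizing enzymes Gad1 and Gad2 together, at least 2 of Sst, at most 1 of Vip, and none of the vesicular glutamate transporters Slc17a7 and Slc17a6. The rule selected 80 nuclei, called Sst nuclei here, of 73649 inside the limits on UMIs and genes and of 73826 in all. The 80 came from 10098 GABAergic nuclei, which met the rule with Sst and Vip left aside. Because the levels of these 9 genes chose the nuclei, their levels within the chosen set are a description, and no test of them there is reported.

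The nuclei were taken from male wild-type Wistar rats, 12 weeks old, 48 h after the right middle cerebral artery had been blocked for good by a filament (middle cerebral artery occlusion, MCAO) or after a sham operation in which no filament was inserted. Tissue was pooled over rats before 1 library per hemisphere was made, from 4 rats with the sham operation (Sham L for the left side, Sham R for the right), 3 rats with moderate infarctions (mMCAO contra and mMCAO ipsi) and 4 rats with severe infarctions (sMCAO contra and sMCAO ipsi). The libraries formed 3 groups of 2, Sham, MCAO contra (the left hemisphere, opposite the lesion) and MCAO ipsi (the right hemisphere, with the lesion). The hemispheres of a pool share their rats, and the 2 MCAO libraries of a group differ in severity, so p-values measure the spread between these libraries and not between single animals.

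Somatostatin is a neuropeptide that is released together with GABA by a class of inhibitory interneurons of the cortex, striatum and hippocampus. In the cortex most of these cells are born in the medial ganglionic eminence under the transcription factors Lhx6, Sox6 and Satb1, and many of them, such as Martinotti cells, inhibit the distal dendrites of pyramidal neurons. A rarer kind also makes neuropeptide Y (Npy) and nitric oxide through the neuronal synthase Nos1, while interneurons of the caudal ganglionic eminence carry Adarb2 and commonly make Vip.

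Markers of the class that the rule had not used differed in how many Sst nuclei they were found in. Sox6 was detected in 71 of 80 Sst nuclei (88.8%, exact 95% interval 79.7% to 94.7%) and in 32.4% of the 9719 nuclei that met the rule with no Sst UMI, which are the other GABAergic nuclei below. Satb1 was detected in 62.5% of Sst nuclei against 21.2% of the others, and Reln, the secreted glycoprotein reelin of Martinotti and other interneurons, in 71.2% against 30.3%. Lhx6, which stands with Sst among the markers of the class, was found in 14 of 80 Sst nuclei (17.5%, 9.91% to 27.6%) and in 6.03% of the others, so that most Sst nuclei had no Lhx6 UMI. Sst nuclei were deeper than GABAergic nuclei as a whole in every library, with a median of 4273.5 against 3677 UMIs in mMCAO contra, for example, and depth was not matched in these shares. The 13 measured transcription factors of the medial ganglionic eminence lineage summed to 2570 CPM (UMIs per 1000000 UMIs of the same nuclei) in Sst nuclei, against 939 in the other GABAergic nuclei and 1916 in the 586 GABAergic nuclei with Lhx6 and no Sst, which were chosen on a factor of this list. Sox6 alone supplied 1680 of the 2570 CPM, and the other 12 factors summed to 890 in Sst nuclei, 964 in the Lhx6 nuclei and 500 in the other GABAergic nuclei. Of these factors Sox6 and Satb1 were thus found in most Sst nuclei and Lhx6 in few, and the nuclei without Sox6 are described below.

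Markers of non-neuronal classes were few. Vascular markers had 1 UMI in all Sst nuclei together, a Pecam1 molecule, with 6 of 7 measured genes at 0. Myeloid markers had 12 UMIs, 6 of them Arhgap15, with Ptprc, Csf1r, Cx3cr1 and P2ry12 at 0. Oligodendrocyte markers had 109 UMIs, 53 of them in sMCAO ipsi and 50 of them Mbp, of which 1 nucleus of sMCAO ipsi held 27, and astrocyte markers had 208, of which 159 were Slc4a4, with Aqp4, Gja1 and Aldh1l1 at 0.

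Markers of other inhibitory neurons were more abundant. Those of medium spiny neurons, the projection neurons of the striatum, had 1032 UMIs (2449 CPM), between the 1385 CPM of Lhx6 nuclei without Sst and the 4964 of the other GABAergic nuclei, and 412 of the UMIs were Pde10a, while Ppp1r1b was at 0. By library they stood at 1014 and 2253 CPM in Sham, 3479 and 2598 in mMCAO and sMCAO contra, and 2135 and 1713 in mMCAO and sMCAO ipsi. Markers of the Adarb2 lineage had 423 UMIs (1004 CPM, against 1719 and 2256 in the same comparison sets), 356 of them Adarb2, with Prox1, Cxcl14 and Sncg at 0, and are given by library below. Markers of Pvalb interneurons had 234 UMIs (555 CPM, against 1169 and 771), 111 of them Eya4, with Cox6a2, Eya1 and Syt2 at 0. Their part in the comparisons below was not tested. Of the 80 Sst nuclei, 11 were among the 5% of nuclei most like simulated doublets in their library, 8 of these in mMCAO contra.

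Sst nuclei were found almost only in the MCAO libraries. Sham L held 3 and Sham R 1, mMCAO contra held 30 and sMCAO contra 14, and mMCAO ipsi held 11 and sMCAO ipsi 21. The 2 Sham libraries thus held 4 of the 80 although they contributed 1859 and 1459 GABAergic nuclei, against 2321, 1504, 1725 and 1230 in the other libraries in the same order.

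As a share of GABAergic nuclei, Sst nuclei made up 0.161% of Sham L (exact 95% interval 0.0333% to 0.471%) and 0.0685% of Sham R (0.00174% to 0.381%). They made up 1.29% of mMCAO contra (0.874% to 1.84%) and 0.931% of sMCAO contra (0.510% to 1.56%). In the lesioned hemisphere they were 0.638% of mMCAO ipsi (0.319% to 1.14%) and 1.71% of sMCAO ipsi (1.06% to 2.60%). Every MCAO library lay above both Sham libraries, and of their intervals only that of mMCAO ipsi reached into those of Sham L and Sham R.

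The mean share was 1.17% ± 0.756 in MCAO ipsi, 1.11% ± 0.256 in MCAO contra and 0.115% ± 0.0656 in Sham (SD, n = 2 libraries each). MCAO ipsi was thus 10.2 times Sham, with 3.95 to 24.9 for single pairs of libraries, and MCAO contra 9.67 times Sham, with 5.77 to 18.9. Over all nuclei instead of GABAergic nuclei the ratio of MCAO ipsi to Sham was 10.8. No test was made, since 2 libraries against 2 cannot reach a two-sided exact permutation p under 0.33. The intervals cover counting error only. The study chose coronal slices that spanned the lesions, and the labels do not give the slice level of each library, so that a difference in the region sampled cannot be told apart from the group.

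The shares rested on low counts near the threshold of the rule. Of the 80 Sst nuclei 46 had exactly 2 Sst UMIs, 24 had 3 or 4, and 10 had 5 or more, of which 7 were in sMCAO ipsi, 2 in mMCAO contra and 1 in sMCAO contra. Just outside the rule, with 1 Sst UMI, were 29 and 22 nuclei in Sham L and Sham R, 70 and 41 in mMCAO and sMCAO contra, and 35 and 32 in mMCAO and sMCAO ipsi. Counting these as well, the share with Sst was 1.72% and 1.58% in the Sham libraries and 2.67% to 4.31% in the MCAO libraries, and MCAO ipsi was 2.12 times and MCAO contra 2.42 times Sham. With nuclei of at least 2000 UMIs thinned to 2000 and the others left out, this share was 1.47% and 1.28% in Sham L and Sham R. It was 3.19% and 2.35% in mMCAO and sMCAO contra, and 1.34% and 1.78% in mMCAO and sMCAO ipsi. Here mMCAO ipsi lay between the Sham libraries, and the ratios to Sham were 1.14 for MCAO ipsi and 2.02 for MCAO contra. In this version the GABAergic nuclei were picked again after thinning. Among those picked before thinning, the thinned share was 1.02% and 1.25% in Sham, 2.66% and 2.35% in MCAO contra. It was 1.86% and 1.56% in mMCAO and sMCAO ipsi, both above both Sham libraries.

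**Figure D1:**
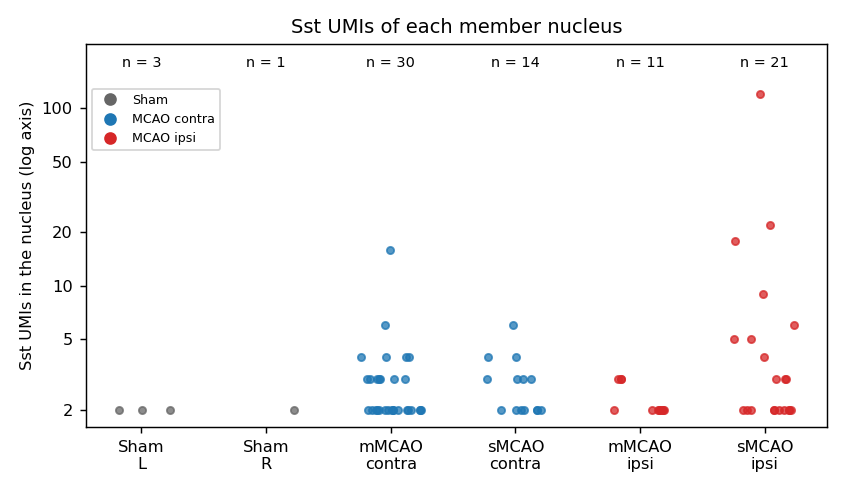
Sst UMIs (log axis) of each of the 80 Sst nuclei by library, 1 point per nucleus with sideways scatter to separate points, coloured by group. All 4 Sham nuclei sit at 2 UMIs, most MCAO nuclei at 2 to 4, and 1 sMCAO ipsi nucleus at 120.

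Depth and free RNA differed between libraries and move with such shares. GABAergic nuclei had a median of 3233 and 2309 UMIs in Sham L and Sham R, 3677 and 3307.5 in mMCAO and sMCAO contra, and 3434 and 5956 in mMCAO and sMCAO ipsi. Nuclei with at least 2000 UMIs were thinned to 2000 and the rule was applied again. The shallower nuclei, 3384 to 5379 per library and 4254 of 8665 in sMCAO ipsi, were left out. After this 0 of 883 and 0 of 626 GABAergic nuclei of Sham L and Sham R qualified. These counts allow shares of up to 0.340% and 0.479% by 3 counts of the total (exact upper limits 0.417% and 0.588%). In the thinned MCAO libraries 8 nuclei of mMCAO contra (0.729%), 6 of sMCAO contra (0.831%) and, on the lesioned side, 2 of mMCAO ipsi (0.223%) and 3 of sMCAO ipsi (0.594%) qualified, so that mMCAO ipsi lay below what the Sham counts of 0 allow and sMCAO ipsi just above it. Nuclei that should lack Sst gave a measure of free RNA. Among glutamatergic neurons 0.130% to 0.503% carried an Sst UMI, at a median of 3564 to 9243 UMIs per nucleus, and only 1 of them, in mMCAO contra, carried 2. Among nuclei with no UMI of Snap25, Syt1 or Rbfox3, 0% to 0.546% carried an Sst UMI at the lower median of 620.5 to 1183 UMIs, and none carried 2. The shares of GABAergic nuclei with Sst were above both in every library. As a level, these nuclei had 0 to 6.03 CPM of Sst, the highest being Sham R, close to the 6.06 CPM of the GABAergic nuclei of that library given next.

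Sst levels were also summed over sets of nuclei that were wider than the rule and contain the Sst nuclei, so that they are a further description of the same molecules and no separate support. Over all GABAergic nuclei Sst amounted to 5.05 and 6.06 CPM in Sham L and Sham R, 17.5 and 14.4 in mMCAO and sMCAO contra, and 8.94 and 31.1 in mMCAO and sMCAO ipsi. A single sMCAO ipsi nucleus with 120 Sst UMIs set the last of these values, which was 16.2 without it. The 2 Sham libraries were the lowest in either case. Of these UMIs the Sst nuclei held 6 of 35 and 2 of 24 in Sham L and Sham R, 93 of 163 and 40 of 81 in mMCAO and sMCAO contra, and 25 of 60 and 218 of 250 in mMCAO and sMCAO ipsi. With the Sst nuclei left out the level was 4.196 and 5.56 CPM in Sham, 7.63 and 7.37 in MCAO contra, and 5.25 and 4.06 in MCAO ipsi, so that MCAO ipsi no longer lay above Sham, while both MCAO contra libraries did. No test of Sst on these sums is reported, since its level chose the nuclei.

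Genes that the rule had not used were tested in these sums with the quasi-likelihood test of edgeR (p adjusted after Benjamini and Hochberg), a fit added after the data had been seen. In it 472 of 13540 genes (3.49%) were called between MCAO ipsi and Sham at an adjusted p under 0.05 and a log2 fold change of at least 0.6, 346 of them higher (2.56%) and 126 lower (0.931%), but 0 were called without Sham L and 21 without Sham R. Between MCAO ipsi and MCAO contra 178 were called (1.31%), 144 higher (1.06%) and 34 lower (0.251%), but 2 without mMCAO contra and 674 without mMCAO ipsi. Between MCAO contra and Sham 0 were called (0.0%), but 301 with only those 4 libraries in the fit and 19 by the Wald test of DESeq2. These sums over nuclei do not by themselves separate fewer nuclei of a type from less RNA per nucleus.

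Markers of other cells moved in the same fit. Of 15 myeloid markers 8 were called higher in MCAO ipsi than in Sham and all 15 had positive values (median 2.01), at a summed 47.6 and 56.1 CPM in Sham, 46.8 and 65.8 in MCAO contra and 201 and 154 in MCAO ipsi. Of 8 tested astrocyte markers 3 were called higher and 1 lower (median 1.20), with a summed 1215 and 1102 CPM in Sham, 1049 and 1124 in MCAO contra and 940 and 869 in MCAO ipsi. Their part in the values of the other genes of these sums was not tested.

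Vip, the peptide of another interneuron class and also a gene of the rule, was at 2.60 and 3.79 CPM in Sham, 11.7 and 6.05 in MCAO contra and 5.66 and 15.4 in MCAO ipsi. Npy was at 8.80 and 7.57 in Sham, 9.02 and 16 in MCAO contra and 7.60 and 26.3 in MCAO ipsi, the last being 10.7 without the single nucleus. Its difference between MCAO ipsi and Sham was 0.96 ± 0.47 (adjusted p = 0.243), or 0.07 ± 0.29 without that nucleus (adjusted p = 0.924). Nos1 fell by 1.17 on the log2 scale between Sham and MCAO ipsi (SE 0.17, adjusted p = 0.00590), from 37.2 and 27.8 CPM in Sham to 16.1 and 15.1, and the 4 MCAO libraries lay between 15.1 and 19.2. Without Sham L the adjusted p was 0.195. Lhx6 fell too, by 0.66 (adjusted p = 0.0409), and by 0.39 without Sham L. It was not called by the Wald test of DESeq2 (adjusted p = 0.166). Nor was it called by the edgeR test with only the 4 libraries of the 2 groups (adjusted p = 0.0855).

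Sst was also read in sets of nuclei picked by other genes of the class after the data had been seen, which again hold part of the Sst nuclei and carry no test. In GABAergic nuclei with at least 3 Sox6 UMIs and 1 Satb1 UMI, Sst was at 13.1 and 16.3 CPM in Sham, 63.1 and 54.6 in MCAO contra, and 20.3 and 84.7 in mMCAO and sMCAO ipsi. With the Sst nuclei left out it was at 8.64 and 16.3 in Sham, 23.8 and 23.2 in MCAO contra, and 11.2 and 17.0 in MCAO ipsi, where the MCAO ipsi and Sham libraries overlapped. These nuclei made up 14.4% and 9.32% of GABAergic nuclei in Sham L and Sham R, 13.4% and 13.5% in MCAO contra and 13.8% and 9.59% in MCAO ipsi, and 5.22% to 21.2% of them had an Sst UMI. In nuclei with at least 2 UMIs each of Sox6 and Reln and 1 of the glutamate receptor subunit Grin3a, Sst was at 30.8 and 25.2 in Sham and at 66.2 to 217 in MCAO libraries, or 23.2 and 25.2 against 34.3 to 56.7 with the Sst nuclei left out. In the 19 to 39 nuclei per library with at least 2 Nos1 UMIs, Sst was at 35.9 and 88.3 in Sham and at 144 to 260 in the MCAO libraries without the single nucleus, whereas Npy in the same nuclei was at 266 and 265 in Sham and at 180 to 451 elsewhere, again without it. With the Sst nuclei left out, Sst there stood at 22.4 and 88.3 in Sham and at 8.998 to 75.1 in the MCAO libraries, from 1 to 6 UMIs a library.

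**Figure D2:**
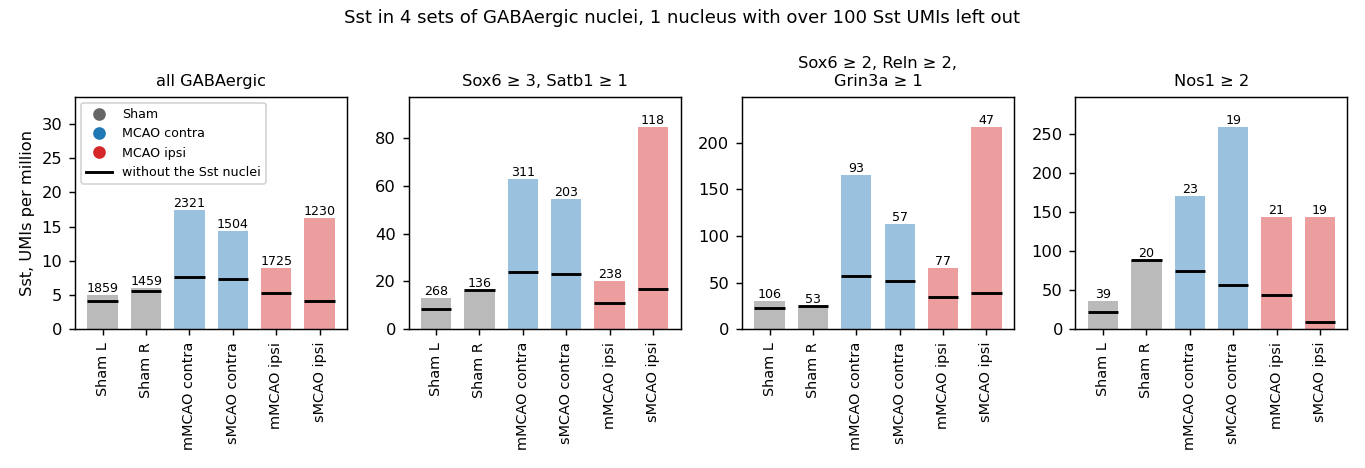
Sst in CPM as 1 bar per library in 4 sets of GABAergic nuclei that contain Sst nuclei, with the number of nuclei of the set above each bar, the nucleus of 120 Sst UMIs left out of the bars, and a black line for the level with all Sst nuclei left out. Both Sham bars are the lowest in every set, but the black lines of Sham and MCAO ipsi overlap in all sets but the third.

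Beside Sst itself, a small group of peptide, signalling and receptor genes marked the Sst nuclei. Among genes with a symbol and at least 50 CPM in Sst nuclei, 8 had the highest ratio over the other GABAergic nuclei. They were Npy, Syde2, Npsr1, Nos1, Tacr1, Pappa2, Lypd6 and Vgf, after 5 CPM had been added to each level. As the nuclei were chosen on Sst in these libraries, the ratios are a description of what Sst travelled with.

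Npy was at 548 CPM in Sst nuclei and 6.06 in the other GABAergic nuclei, and at 254 without the nucleus of 120 Sst UMIs. By library it had 0 UMIs in both Sham libraries, 31 and 30 in mMCAO and sMCAO contra, and 6 and 164 in mMCAO and sMCAO ipsi, over 27 nuclei. Of the 164, the single nucleus held 125. Against the 3 UMIs that a count of 0 allows over both Sham libraries (128 CPM), MCAO ipsi at 871 CPM was at least 6.79-fold higher, at least 1.83-fold without that nucleus and at least 1.05-fold without sMCAO ipsi, and MCAO contra at 301 was at least 2.34-fold higher. The limit covers counting error only, and Npy was found in only 27 of the 80 nuclei.

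Npsr1, the receptor of neuropeptide S, was at 332 against 12.8 CPM, found in 15 nuclei. Nos1 was at 237 against 16.9, found in 24, and Tacr1, the receptor of substance P, at 313 against 36.7, found in 29. These 3 genes are known companions in the nitric oxide kind of the class. Lypd6, a modulator of nicotinic receptors, was at 261 against 41.9 and was the most widespread of the 8, with UMIs in 40 nuclei. Pappa2, a protease of insulin-like growth factor binding proteins, was at 78.3 against 8.30 in 8 nuclei, and Vgf, a neuropeptide precursor, at 112 against 16.8 in 22 nuclei. Syde2 owed its place to the single nucleus, with 85 of its 89 UMIs there.

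Nuclei just outside the rule, with 1 Sst UMI, lay between Sst nuclei and the other GABAergic nuclei in the genes named next. They had 53.4 CPM of Npy, 103 of Nos1, 96.3 of Tacr1 and 170 of Lypd6.

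The promoter of Sst is known for a cAMP response element, the palindrome TGACGTCA, which reads the same on both strands. It was searched in the RefSeq promoter windows (GRCr8, 250 bases before to 50 after the annotated start) of Sst, Npy, Vip and the other 7 genes above. It occurred in 3 of the 10, in Sst from position 3 counted from the annotated start, in Vgf from position -90 and in Nos1 from position -9. Over all 33469 windows 612 (1.83%) held it. The 3 stretches are shown because they belong to Sst and to 2 of the 8 genes that marked the nuclei chosen on it. A match is a stretch of letters only, and binding was not measured. Capitals mark the element, and each stretch is written on the gene's own strand.
Sst, chr11:90461537-90461566, plus strand: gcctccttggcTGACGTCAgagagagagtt
Vgf, chr12:25277092-25277121, minus strand: tgaatgaacatTGACGTCAatggggcgggg
Nos1, chr12:44371828-44371857, minus strand: tgacgccaagtTGACGTCAaagacagaggc

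Among themselves the Sst nuclei differed in Nos1 and Reln. Nos1 was detected in 24 nuclei and at least 5 Reln UMIs in 37, while 7 nuclei had both and 26 had neither. At least 5 Reln UMIs were found in 29.2% of the nuclei with Nos1 (exact 95% interval 12.6% to 51.1%) and in 53.6% of those without (39.7% to 67.0%), with overlapping intervals. Npy was detected in 16 of the 24 nuclei with Nos1 (66.7%, exact 95% interval 44.7% to 84.4%) and in 11 of the 56 without (19.6%, 10.2% to 32.4%).

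Of the 140 Npsr1 UMIs 132, and of the 132 Tacr1 UMIs 113, were in the nuclei with Nos1. The phosphodiesterase Pde1a (1825 against 349 CPM) and the axon guidance cue Ntn1 (324 against 33.9) were likewise higher there. In the nuclei without Nos1, the transcription factors Npas3 (1920 against 174) and Eya4 (373 against 7.90), the synaptic priming factor Unc13c (468 against 15.8), the G-protein regulator Rgs6 (712 against 103) and the glutamate receptor Grm8 (896 against 229) were higher. Nuclei with at least 5 Reln UMIs held all 33 UMIs of Pappa2 and 174 of the 216 of Grin3a.

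The Nos1 nuclei were spread over 5 libraries, with 1 of 3 in Sham L, 0 of 1 in Sham R, 7 of 30 in mMCAO contra, 5 of 14 in sMCAO contra, 5 of 11 in mMCAO ipsi and 6 of 21 in sMCAO ipsi. The exact intervals of the 4 MCAO shares overlapped.

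**Figure D3:**
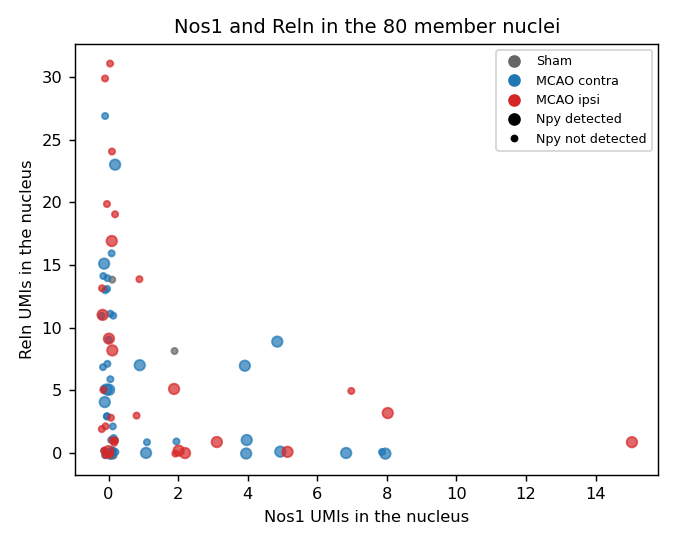
Reln UMIs against Nos1 UMIs in the 80 Sst nuclei, coloured by group, with large points for nuclei with Npy and small points for those without; points are moved by up to 0.2 UMIs to separate them. Of the 37 nuclei with at least 5 Reln UMIs 30 lie at 0 Nos1 UMIs, and 26 nuclei have neither.

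A further set of 9 nuclei had no Sox6 UMI, 6 of them in sMCAO ipsi (6 of 21), 2 in mMCAO contra and 1 in Sham R. Npy, Nos1, Npsr1, Tacr1 and Grin3a were all at 0 in them. The chloride channel Ano2 (610 against 19.4 CPM), the transcription factors Meis2 (1335 against 164) and Ebf1 (478 against 33.3) and the cation channel Trpc4 (1055 against 169) were higher than in the other 71, and 5 of the 9 had at least 9 Meis2 UMIs. Lhx6 was at 0 in all 9 and Satb1 in 8 of them, while 1 had at least 5 Reln UMIs and 4 had at least 10 of Nxph1, another interneuron gene. All 77 Meis2 UMIs of sMCAO ipsi were in 5 of its 6 nuclei without Sox6.

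Most of the few Sst nuclei of Sham carried Adarb2, the RNA-editing family gene of the caudal lineage. This describes 4 nuclei, and edgeR's quasi-likelihood test called Adarb2 in neither comparison of Sst nuclei with Sham. Of the 3 in Sham L, 1 had 20 Adarb2 UMIs with 11 of Sox6, 1 had 176 with 9 of Sox6, and 1 had 0 with 2 Nos1, 11 Npsr1 and 6 Tacr1 UMIs. The only one in Sham R had 29 Adarb2 UMIs, 4 of Meis2 and none of Sox6. At least 10 Adarb2 UMIs were thus present in 3 of 4 Sham nuclei, against 2 of 30 in mMCAO contra, 1 of 14 in sMCAO contra, 2 of 11 in mMCAO ipsi and 0 of 21 in sMCAO ipsi.

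Summed per library, Adarb2 was at 9463 and 10890 CPM in Sham L and Sham R, 415 and 280 in mMCAO and sMCAO contra, and 944 and 86.3 in mMCAO and sMCAO ipsi. The groups did not overlap, but the Sham values rest on 4 nuclei, and 176 of the 225 Sham UMIs came from 1 of them. In the test over the Sst nuclei Adarb2 had the smallest p of all genes both for MCAO ipsi against Sham (log2 fold change -4.05 ± 0.88, adjusted p = 0.519) and for MCAO contra against Sham (-4.46 ± 0.89, adjusted p = 0.239), and was called in neither by edgeR's quasi-likelihood test.

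The wider set of all GABAergic nuclei with at least 1 Sst UMI, added after the data had been seen, held 32, 23, 100, 55, 46 and 53 nuclei in the order Sham L, Sham R, mMCAO contra, sMCAO contra, mMCAO ipsi and sMCAO ipsi. Adarb2 was there at 2199 and 2417 CPM in Sham, where the other GABAergic nuclei of the same libraries had 2337 and 2102, and at 563, 710, 782 and 498 in the MCAO libraries, where the others had 1777 to 2113. By the same edgeR test Adarb2 was lower in MCAO ipsi than in Sham (-1.89 ± 0.22, adjusted p = 0.000113) and in MCAO contra than in Sham (-1.90 ± 0.22, adjusted p = 8.82e-05). The change from Sham to MCAO ipsi differed from that in the other GABAergic nuclei by -1.52 ± 0.21 (interaction term, adjusted p = 2.09e-09). Of the 298 Adarb2 UMIs of Sham L 176 were in 1 nucleus, however, without which that library stood at 962 CPM. Without that nucleus, an alternative also chosen after the data had been seen, Adarb2 remained called in MCAO ipsi against Sham (-1.40 ± 0.29, adjusted p = 0.0360) and not in MCAO contra against Sham (-1.41 ± 0.29, adjusted p = 0.240). The interaction was then -0.98 ± 0.21 against the other GABAergic nuclei (adjusted p = 0.0121) and -1.36 ± 0.35 against the Lhx6 nuclei (adjusted p = 0.415).

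Sox6, by contrast, was at 1099 and 1359 CPM in Sham and 1244 to 1625 in the MCAO libraries, all above the 306 to 554 of the other GABAergic nuclei. Npy was at 36.9 and 54.9 in Sham and at 103, 179, 79.7 and 466 in the MCAO libraries, the last being 133 without the nucleus of 120 Sst UMIs, which held 125 of the 174 UMIs. Of the Sham nuclei 5 of 32 and 6 of 23 had at least 10 Adarb2 UMIs (15.6% and 26.1%), against 7.55% to 10.9% in the MCAO libraries, with overlapping exact intervals. The part of free Sst RNA in the Sham values was not tested.

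**Figure D4:**
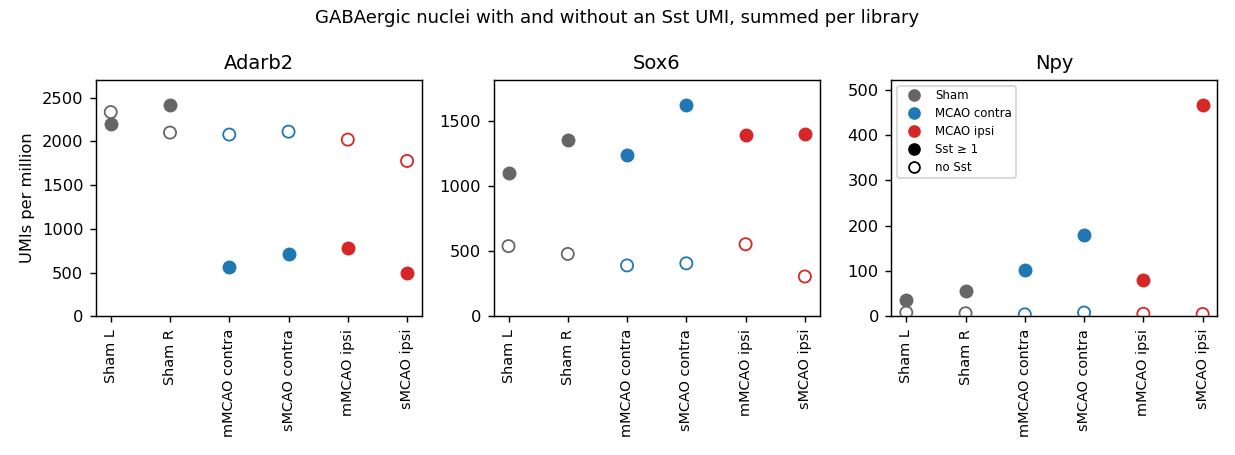
CPM of Adarb2, Sox6 and Npy by library, with filled points for GABAergic nuclei with at least 1 Sst UMI and open points for those without. In Adarb2 the filled and open Sham points lie between 2102 and 2417, the filled point of Sham L falling to 962 without 1 nucleus that is included here, while the filled MCAO points lie at 498 to 782, and in Sox6 every filled point lies above every open one. In Npy the filled point of sMCAO ipsi, at 466, falls to 133 without the nucleus of 120 Sst UMIs.

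The lesioned and the opposite hemisphere were compared next, which asks whether the Sst nuclei of the hemisphere with the infarct differed from those of the intact side of the same rats. The position of a nucleus within the hemisphere is not known. By edgeR's quasi-likelihood test on UMIs summed per library, 0 of 1276 genes (0.0%) were called between MCAO ipsi and MCAO contra, with 36 at an unadjusted p under 0.05, and DESeq2 called 0. The sums held 142006 and 60813 UMIs in mMCAO and sMCAO contra, and 44501 and 150637 in mMCAO and sMCAO ipsi.

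The genes with the smallest p, none of which passed, included the chaperones Hsp90ab1, Hsp90aa1 and Hsph1. Of these, Hsp90aa1 and Hsph1 entered the test only through the nucleus of 120 Sst UMIs. Hsp90ab1, a cytosolic form of HSP90, was at 98.6 and 132 CPM in MCAO contra and 270 and 312 in MCAO ipsi, without overlap (log2 fold change 1.43 ± 0.43, adjusted p = 0.9998). Hsp90aa1, its stress-inducible form, was at 42.3 and 148 against 247 and 272 (1.70 ± 0.58). In sMCAO ipsi the nucleus of 120 Sst UMIs held 23 of 47 Hsp90ab1 and 26 of 41 Hsp90aa1 UMIs. Without it the library was at 164 CPM of Hsp90ab1 (0.86 ± 0.50 for the groups) and at 102 of Hsp90aa1, which then overlapped MCAO contra and no longer entered the test. Hsph1, the HSP110 chaperone, was at 35.2 and 49.3 against 22.5 and 544, so that the groups overlapped and its value of 3.10 ± 0.86 came from sMCAO ipsi alone, where 72 of 82 UMIs were in the nucleus of 120 Sst UMIs.

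Mcu, the pore of the mitochondrial calcium uniporter, was at 49.3 and 32.9 against 112 and 193, and Actb, cytoplasmic actin, at 35.2 and 115 against 202 and 226. Lower in MCAO ipsi were Dab1, the adaptor through which cells respond to reelin, at 317 and 181 against 112 and 79.7, the extracellular matrix gene Edil3 at 507 and 345 against 135 and 199, Csmd2 at 289 and 411 against 202 and 126, and the metabotropic glutamate receptor Grm3 at 268 and 197 against 157 and 59.7. Hs3st4, a heparan sulfate sulfotransferase, was at 500 and 493 against 0 and 226. None of these groups overlapped, as for 382 of all 1276 genes tested (29.9%), from which these were picked by their p, and all had an adjusted p of 0.9998.

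With the rat pool as a block, which pairs the 2 hemispheres of the moderate and of the severe pool, 4 of 2172 genes (0.184%) were called with 1 residual degree of freedom. Npsr1 was higher in MCAO ipsi by 2.23 ± 0.50 (adjusted p = 0.00895), at 989 against 28.2 CPM in the moderate pool and 405 against 329 in the severe pool. Its UMIs on the lesioned side were in few nuclei, all 44 of mMCAO ipsi in 3 and all 61 of sMCAO ipsi in 3. In the wider set with at least 1 Sst UMI it was at 85.1 and 222 CPM in mMCAO and sMCAO contra and at 314 and 177 in mMCAO and sMCAO ipsi, so that the severe pool turned. Hs3st4 was lower by -2.05 ± 0.49 (adjusted p = 0.0206). The other 2 were entries of the mitochondrial genome that carry no gene symbol, higher by 2.33 (adjusted p = 0.000144) and 2.12 (adjusted p = 0.0318). The same 4 libraries without the block gave 0 calls.

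The heat shock list of 19 measured chaperones and co-chaperones stood at 531 and 1127 CPM in Sham L and Sham R, 599 and 724 in mMCAO and sMCAO contra, and 1416 and 1952 in mMCAO and sMCAO ipsi. Without the nucleus of 120 Sst UMIs, which alone had 170 heat shock UMIs, sMCAO ipsi was at 846, and without its highest nucleus mMCAO ipsi was at 1280. Both stayed above both MCAO contra libraries, and mMCAO ipsi also above the single Sham R nucleus. At least 5 heat shock UMIs were found in 5 of 30 and 3 of 14 nuclei of MCAO contra and in 6 of 11 and 13 of 21 of MCAO ipsi, where nuclei of sMCAO ipsi were deeper. The median over nuclei was 646 and 549 CPM in MCAO contra and 1469 and 793 in MCAO ipsi. In the other GABAergic nuclei of the same libraries the list lay between 617 and 721 CPM, at 637 in mMCAO ipsi and 721 in sMCAO ipsi. Of the list 3 genes entered the test and 0 were called. Hsph1 and Hsp90aa1 entered it through the nucleus of 120 Sst UMIs, without which Hsp90ab1 was the only one that could be tested, so no median over the 3 is given.

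Measures of RNA from outside the nucleus stood beside the heat shock list. Mitochondrially encoded genes were at 2221, 376, 458, 1842, 2831 and 1580 CPM in the order Sham L, Sham R, mMCAO contra, sMCAO contra, mMCAO ipsi and sMCAO ipsi, and 6 of 6 tested were higher in MCAO ipsi than in MCAO contra, with a median of 1.23 and 0 called. Ribosomal protein genes, a measure of cytoplasmic RNA, stood at 628, 376, 669, 1151, 1079 and 1633 in the same order. The part of cytoplasmic RNA in the heat shock values was not tested.

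**Figure D5:**
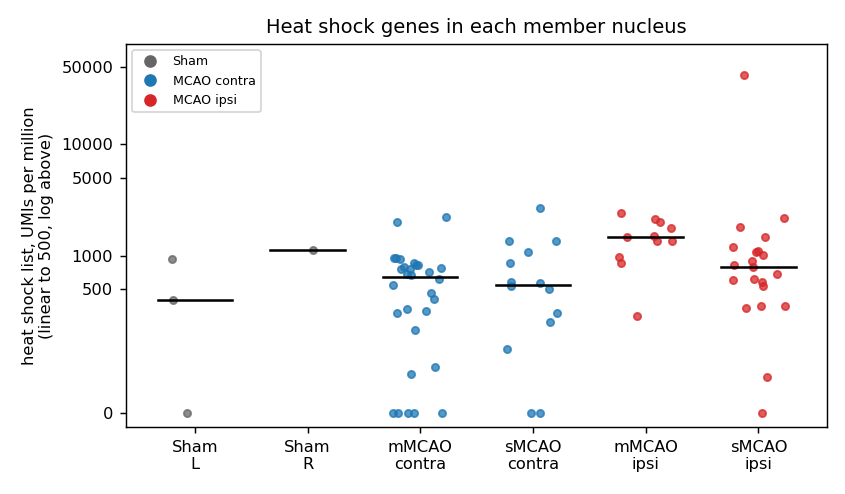
Summed heat shock list in each Sst nucleus as CPM of the nucleus (linear to 500, logarithmic above), by library and coloured by group, with the median as a black line. The medians of MCAO ipsi, 1469 and 793, lie above those of MCAO contra, 646 and 549, and 1 sMCAO ipsi nucleus lies far above all others.

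That nucleus of sMCAO ipsi had 4018 UMIs and 2067 genes. Beside 120 Sst and 125 Npy UMIs it held 72 of Hsph1, 26 of Hsp90aa1, 24 of the co-chaperone Dnaja1, 23 of Hsp90ab1 and 17 of the ubiquitin gene Ubb, 85 of Syde2, 51 of the chromatin remodeller Chd5 and 19 of the calmodulin regulator Pcp4. An Ensembl gene without a symbol had 152 UMIs there and 0 in the other 79 Sst nuclei. Sst made up 2.99% of its UMIs and Npy 3.11%.

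Against Sham, 0 of 1276 genes (0.0%) were called in MCAO ipsi and 0 (0.0%) in MCAO contra, with 81 and 79 at an unadjusted p under 0.05. DESeq2 called 0 in MCAO ipsi and 1, Adarb2, in MCAO contra. The Sham sums held 20713 UMIs from 3 nuclei and 2663 from 1.

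After Adarb2, the smallest p values for lower genes in MCAO ipsi belonged to the cannabinoid receptor Cnr1, at 676 and 376 CPM in Sham against 135 and 59.7 (-2.71 ± 0.67, adjusted p = 0.519), and to the transporter Slc44a5 (-2.81 ± 0.72), the secreted factor Tafa5 (-2.14 ± 0.61) and the RNA-binding gene Arpp21 (-2.16 ± 0.62). For these genes Sham R held 0 or 1 UMI. The Sham L nucleus with 176 Adarb2 UMIs held 13 of the 14 Cnr1, 13 of the 22 Slc44a5 and all 15 Arpp21 UMIs of its library. With at least 1 Sst UMI and without that nucleus the value of Cnr1 turned to 0.58. Higher, without passing, were the GABA receptor subunit Gabrb1 at 290 and 0 against 899 and 1301 (2.32 ± 0.72, adjusted p = 0.669), Thsd7b at 48.3 and 0 against 494 and 345, and the glypican Gpc6 at 145 and 0 against 449 and 1155. Cfap69 and the sodium leak channel partner Unc80 were at 0 in both Sham libraries, and MCAO ipsi was at least 2.04-fold and 1.92-fold higher than the Sham limit. Both genes were picked by their small p, and the limit covers counting error only, so it is no separate support for a change. With at least 1 Sst UMI in place of 2 the values of Unc80 (-0.078) and Gpc6 (-0.23) turned. In MCAO contra the lowest p values again included Adarb2, Cnr1 and Slc44a5, with Mitf and Fancm, among lower genes, and Thsd7b, Unc80, Tox, Nell1 and Ankfn1 among higher ones. Tox, a transcription factor, was at 0 and 376 CPM in Sham and 437 and 641 in MCAO contra, and Nell1, a secreted protein, at 435 and 0 against 1662 and 1579. With at least 1 Sst UMI, Unc80 (-0.13) and Thsd7b (-0.17) turned here too. The 2 comparisons share the Sham libraries.

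Whether a change from Sham to MCAO ipsi was greater in Sst nuclei than elsewhere was tested by an interaction term with the library as a block. Against 586 GABAergic nuclei with Lhx6 and no Sst, 5 of 4436 genes (0.113%) were called, with Npy, Rarb and Meis2 more positive (0.0676%) and Adarb2 and Cadps2 more negative (0.0451%) in Sst nuclei. Against the 9719 other GABAergic nuclei, 5 of 11615 (0.043%) were called, Npy being more positive (0.00861%) and Adarb2, Cadps2, Col4a3 and a gene without a symbol more negative (0.0344%). Without the nucleus of 120 Sst UMIs the call of Npy was lost there (adjusted p = 0.579) and kept against the Lhx6 nuclei (adjusted p = 0.0161). Adarb2, for example, was at 1467 and 1267 CPM in the Lhx6 nuclei of Sham and at 1032 and 1894 in those of MCAO ipsi, where Sst nuclei went from 9463 and 10890 to 944 and 86.3 (difference in log2 fold change -4.22 ± 0.79, adjusted p = 0.000178). The retinoic acid receptor Rarb was at 221 and 281 in the Lhx6 nuclei of Sham and at 85.6 and 39.0 in MCAO ipsi. In Sst nuclei it was at 48.3 and 0 in Sham and at 607 and 159 in MCAO ipsi. Rarb and Meis2 are also on the list of medium spiny neuron markers. Of that list, 6 of 6 tested genes had positive log2 fold changes in Sst nuclei, MCAO ipsi against Sham (median 0.53, 0 called). The libraries of the groups overlapped for Meis2, Foxp2 and Pde10a, and not for Rarb, Foxp1 and Bcl11b. Meis2 was at 0 and 1502 CPM in Sham and at 270 and 511 in MCAO ipsi, and Foxp2 at 0 and 751 against 360 and 6.64. The part of such markers in the interaction calls was not tested.

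These calls rest on the 4 Sham nuclei. All 17 Sham UMIs of Cadps2, a factor of dense-core vesicle release, and all 11 of the collagen gene Col4a3 were in the Sham L nucleus with 176 Adarb2 UMIs, and all 4 of Meis2 in the Sham R nucleus. Without sMCAO ipsi 0 genes were called against either set, and with an estimate of free RNA subtracted 0 were called against the Lhx6 nuclei and 198 against the other GABAergic nuclei. With at least 1 Sst UMI in place of 2, Npy, Adarb2, Rarb and Meis2 were again called against Lhx6 nuclei, Npy with a difference of 4.87 ± 0.77 (adjusted p = 0.000843). Without the Sham L nucleus with 176 Adarb2 UMIs, Npy, Rarb and Meis2 were called in that wider set. Both fits kept the nucleus of 120 Sst UMIs, which held 125 of the 174 Npy UMIs of sMCAO ipsi there. That library stood at 466 CPM of Npy with this nucleus and at 133 without it. All Meis2 UMIs of sMCAO ipsi were in nuclei without Sox6.

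The remaining lists showed no called gene in any of the 3 comparisons. Sst subtype genes had 8 of 26 members in the test, with a median log2 fold change of -0.06 between MCAO ipsi and MCAO contra. Among its abundant members were Reln, at 1204 and 1348 CPM in MCAO contra and 1371 and 1115 in MCAO ipsi, and the peptidase Trhde, at 1246 and 756 against 629 and 876, both overlapping. Sox6 was at 1408 and 2187 against 2090 and 1666. Of the 8 tested Sst subtype genes, 7 had positive log2 fold changes against Sham in MCAO ipsi (median 0.91) and 7 in MCAO contra (median 1.01). The whole list had 94 UMIs in Sham L and 0 in Sham R, and genes could enter the test through the MCAO libraries alone. These directions are thus a description that rests on the few Sham nuclei, and no support for a change. The medians over all tested genes were 0.20 and 0.17.

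Of all 1276 genes tested 655 were higher in MCAO ipsi than in MCAO contra (median 0.01). Of the 14 tested potassium channel genes 1 was higher, with a median of -0.40. Against Sham 7 of the 14 were higher in MCAO ipsi (median -0.09) and 9 in MCAO contra (median 0.31), where 766 and 738 of all genes were. Kcnip4, a subunit of A-type channels, was at 6887 and 3453 against 2225 and 3937, and Kcnd2, a pore of these channels, at 3803 and 2960 against 2449 and 2543. Of 13 sodium and calcium channel genes 5 were higher (median -0.06), of 17 glutamate receptor genes 5 (median -0.05) and of 8 GABA receptor genes 4 (median 0.20). Of 12 genes of synaptic adhesion and release outside the selection rule 8 were higher (median 0.19). Of 6 genes of peptide processing and dense-core vesicles 2 were higher (median -0.15), among them Cadps at 1359 and 1907 against 1348 and 1540. Of the 13 sodium and calcium channel genes, 12 were higher in MCAO ipsi than in Sham (median 0.65) and 10 in MCAO contra (median 0.81). The 17 glutamate receptor genes gave 12 (median 0.33) and 13 (median 0.47) in the same order. The 8 GABA receptor genes gave 4 (0.06) and 5 (0.18). Synaptic adhesion and release gave 8 (0.09) and 6 (0.0015) of 12, and peptide processing 5 (0.41) and 5 (0.58) of 6. Higher means a positive log2 fold change in all these counts. Those against Sham rest on the few Sham nuclei, and genes could enter the test through the MCAO libraries alone, so they are a description only.

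Genes of injury responses were mostly too low to test. No member of the lists of immediate early genes, ER stress, axon injury, apoptosis or interferon response passed the filter, nor did any receptor of somatostatin or neuropeptide Y, whose 8 genes had 18 UMIs in all, 7 of them Sstr2. Fos, the immediate early transcription factor, had 17 UMIs in 5 nuclei, at 92.9 CPM in sMCAO ipsi, 21.1 in mMCAO contra and 0 in the other 4 libraries. Over all Sst nuclei it was at 40.3 CPM, at 21.6 without the nucleus of 120 Sst UMIs, and at 3.09 in the other GABAergic nuclei. Axon injury genes summed to 838 and 872 CPM in MCAO contra and 1011 and 1036 in MCAO ipsi, with Atf3, Sprr1a and Gal at 0, and apoptosis and p53 targets to 331 and 164 against 382 and 319.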

How the data were processed

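Nuclei of frozen coronal brain slices were isolated over an iodixanol gradient and captured with a droplet-based 5' kit. According to the submitters' processing notes, the authors aligned the reads with Cell Ranger 7.0.0 to mRatBN7.2, and their methods state that intronic reads were included. The deposited values are raw UMI counts of 30560 genes per nucleus, whole numbers without normalization. The removal of free RNA and of doublets and the filters described in the study come after this step and are not in the deposited counts. Libraries shared 118 to 281 barcodes a pair. Libraries were taken as the groups Sham, MCAO contra and MCAO ipsi from their titles.

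Members were selected by the rule given in the report. The members, gene lists and tests were chosen with earlier results of these data known. Doublets were not removed from the members. The 5% of nuclei per library with the largest share of simulated doublets among 30 neighbours were left out as an alternative. UMIs were summed per library over the members and tested with edgeR 4.0.16 in R 4.3.3 (filterByExpr, TMM, quasi-likelihood F test, all 6 libraries in 3 groups, Benjamini-Hochberg adjustment over all genes tested), in place of the per-nucleus test of the study, because nuclei are not replicates. Genes with an adjusted p under 0.05 and a log2 fold change of 0.6 or more in either direction are termed called. Interaction tests used sums per library and class with the library as a block. Levels are in CPM, UMIs per 1000000 summed UMIs. Shares have exact Clopper-Pearson 95% intervals. Python 3.11.15, numpy 2.4.6 and scipy 1.17.1 served for the rest.

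Genes were named by a rule. With fewer than 3 genes called, these were the 5 in each direction with the smallest p. Added to them were the genes of the selection rule, the leading members of each list and the called interaction genes. The 8 highest co-markers with a symbol and at least 50 CPM were named as well. Genes named for splits of the Sst nuclei by Nos1, Reln or Sox6, for the nucleus of 120 Sst UMIs, for the block fit, and Fos were chosen after their values were seen. The pairing of hemispheres comes from the study, which took both from the same rats. Deviations of the moderate from the severe pool did not go together in the hemispheres (r = -0.0512 across 1276 genes, which are not independent replicates).

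Alternatives were other normalizations and tools (DESeq2 1.42.0), no filter, each library left out, other limits on Sst or Lhx6, doublets left out, nuclei thinned to 2000 UMIs and free RNA subtracted. Those with at least 1 Sst UMI, without the nucleus of over 100 Sst UMIs or that of over 100 Adarb2 UMIs, and with sums over all GABAergic nuclei were added after the data had been seen. The tests were checked on simulated counts. There MCAO ipsi against Sham recovered 54% of genes set to 4-fold and 96% set to 8-fold, with 2 false calls. MCAO ipsi against MCAO contra recovered 80% and 100%, with 11 false calls. In all GABAergic nuclei MCAO ipsi against Sham recovered 77% at 2-fold and 100% at 4-fold, with 4. The interaction against other GABAergic nuclei recovered 31.9% at 8-fold and 50% at 16-fold, with 2. Its median log2 estimates, 8.66 and 8.69, lay above the log2 of the folds set. Promoter windows came from RefSeq for GRCr8 and no coordinate of mRatBN7.2 was used. Listed symbols not found in the files were not analysed here. One abundant member of the list of Sst subtype genes is not reported here.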

Additional observations from a re-analysis of the deposited data

Results flagged for a closer look

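The change from Sham to MCAO ipsi differed between Sst nuclei and Lhx6 nuclei without Sst, by the interaction term of edgeR's quasi-likelihood test, for Npy (adjusted p = 5.11e-05), Adarb2 (adjusted p = 0.000178), Rarb (adjusted p = 0.00118), Cadps2 (adjusted p = 0.0013) and Meis2 (adjusted p = 0.0106). By the same test it differed between Sst nuclei and all other GABAergic nuclei for Npy (adjusted p = 0.000159), the Ensembl gene ENSRNOG00000014851 (adjusted p = 0.000417), Cadps2 (adjusted p = 0.000583), Adarb2 (adjusted p = 0.00236) and Col4a3 (adjusted p = 0.011). On the Sham side all 10 rest on 4 nuclei. Npy had 0 UMIs in them, while in Sst nuclei it had 6 in mMCAO ipsi and 164 in sMCAO ipsi, of which 125 were in 1 nucleus. Without that nucleus 5 genes were called against the Lhx6 nuclei, Npy among them (adjusted p = 0.0161), and 4 against the other GABAergic nuclei, all of them more negative in Sst nuclei, Npy having lost its call (adjusted p = 0.579), and without sMCAO ipsi 0 against either. The Sham L nucleus with 176 Adarb2 UMIs held 14 UMIs of ENSRNOG00000014851, which no other Sst nucleus had. All 77 Meis2 UMIs of sMCAO ipsi were in 5 nuclei with no Sox6 UMI.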

How the results depend on the processing

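Between MCAO ipsi and Sham, edgeR called 0 genes in Sst nuclei, but 6 with no filter on low counts, 3 with at least 1 Sst UMI (Adarb2, Pde10a and a gene without a symbol, all lower) and 0 to 39 with 1 library left out, the 39 without Sham L, which leaves a single Sham nucleus. Between MCAO ipsi and MCAO contra the 0 became 5 with no filter, 2 with at least 5 and 2 with at least 1 Sst UMI, 4 with the rat pool as a replicate block, and 0 to 5 with 1 library left out, the 5 (Hsph1, Syde2 and Foxp2 among them) without mMCAO ipsi. Between MCAO contra and Sham the 0 became 1 by DESeq2's Wald test, 3 with no filter, 1 with only those 4 libraries, 1 with nuclei thinned to 2000 UMIs, 1 with at least 1 Sst UMI and 0 to 44 with 1 library left out. The interaction against Lhx6 nuclei went from 5 genes to 0 with free RNA subtracted and to 0 to 35 with 1 library left out, and that against other GABAergic nuclei from 5 to 198 with free RNA subtracted, to 11 with at least 1 Sst UMI and to 0 to 15 with 1 library left out. The cause was not tested. The ratio of the share of Sst nuclei in MCAO contra to Sham fell from 9.67 to 2.42 with at least 1 Sst UMI and ran from 6.89 to 16.2 with 1 library left out, and that of MCAO ipsi to Sham from 5.55 to 17.1. With at least 5 Sst UMIs, or after thinning, Sham held 0 nuclei and no ratio could be formed.

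Log2 fold changes turned with at least 1 Sst UMI for Unc80 (-0.078 in MCAO ipsi and -0.13 in MCAO contra against Sham), Gpc6 (-0.23, MCAO ipsi) and Thsd7b (-0.17, MCAO contra). Leaving out also the Sham L nucleus with over 100 Adarb2 UMIs, chosen after the data had been seen, 15, 4 and 0 genes were called in the 3 comparisons in the order above, and 3 and 7 in the interactions. The turned values were then -0.13 and -0.18 for Unc80 in MCAO ipsi and contra, -0.28 for Gpc6 and 0.58 for Cnr1 in MCAO ipsi, -0.22 for Thsd7b, 0.38 for Cnr1 and -0.00031 for Nell1 in MCAO contra, and 1.602 and 1.32 for Cadps2 in the interactions. With 1 library left out they ran from -3.19 to 6.18 for Slc44a5 and from -2.38 to 0.056 for Arpp21 in MCAO ipsi, from -2.38 to 6.98 for Slc44a5 in MCAO contra, and, as differences in change, from -5.36 to 5.90 for Cadps2 against Lhx6 nuclei, and from -5.36 to 9.0 for Cadps2 and -12.73 to 0.72 for Col4a3 against other GABAergic nuclei, each turning without Sham L. In all GABAergic nuclei Npy ran from -0.18 to 1.54 in MCAO ipsi against Sham, turning without sMCAO ipsi. There the 472 genes called between MCAO ipsi and Sham became 0 without Sham L, 21 without Sham R and 1425 without mMCAO ipsi, the 178 between MCAO ipsi and MCAO contra 37 with only those 4 libraries and 2 (without mMCAO contra) to 674 (without mMCAO ipsi) with 1 library left out, and the 0 between MCAO contra and Sham 19 by DESeq2, 301 with only those 4 libraries, 317 without mMCAO ipsi and 290 without sMCAO ipsi. Of 572 values of named genes of the 5 comparisons under alternatives, 499 kept direction and side of the threshold, 38 lost and 16 gained a call, and 19 turned. With the rat pool as a block no other comparison could be paired, since Sham has its own rats. The estimate of free RNA used glial markers and came to 21.2% to 57.9% in Sst nuclei and up to 116% in the Lhx6 nuclei without Sst, where it cannot be a share. Depth limits the Sham side above all, with 23376 UMIs in 4 nuclei.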
